A study of Mus musculus with 18 samples.

Results

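The contactins and contactin-associated proteins were represented by 10 genes, Cntn1, Cntn2, Cntn3, Cntn4, Cntn5, Cntn6, Cntnap2, Cntnap5a, Cntnap5b and Cntnap5c, chosen by symbol among the 55335 genes listed for E14 mouse forebrain nuclei. Each of the 10 symbols had its own entry. Contactins are immunoglobulin-type adhesion molecules held on the neuronal surface by a lipid anchor, and contactin-associated proteins are neurexin-like transmembrane proteins. Members of both families bind to each other and to L1-type adhesion molecules, phosphatase receptors and amyloid precursor proteins. They are known for roles in axon growth, fasciculation, the building of axonal domains around the node of Ranvier and synapse formation in the developing brain.

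Single-nucleus RNA was measured by combinatorial barcoding (Scale Biosciences) in dissected forebrain at embryonic day 14. WT animals carried no mutant copy of Myt1l, which encodes a neuronal zinc-finger transcription factor. Het and KO animals carried the MYT1L S710fsX frameshift allele on 1 or on both copies. The line is on a C57BL/6 background, embryos came from 3 litters, and each genotype had 3 animals, so the animal was the replicate. The mutation was present in every cell from conception, and nuclei of all 9 animals were processed together. The titles give each animal 2 runs, which made 18 libraries, and do not say what a run was. In run 1 the genotype tag read WT for all libraries, and in 6 of them this went against the title. Titles were used here.

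Libraries held between 25300676 and 93334845 unique molecules (UMIs), and 196231 of 261143 barcodes were kept. Median UMIs per kept nucleus ranged from 1862 to 4122 over the libraries. Nuclei were clustered without using any of the 10 genes and named from marker genes, so every name below is a rebuilt one and is written "-like". In all, 3429 barcode sequences occurred in different animals and 311 in both runs of 1 animal only. A cluster of 723 diencephalic neuron-like nuclei came from Het 1 alone and entered no test. Expression is given as CPM, the UMIs of a gene in a group of nuclei summed per animal and scaled to a common total of UMIs. Such sums cannot tell a change in level per nucleus from a change in the mix of nuclei inside a group. Myt1l RNA in excitatory neuron-like nuclei was 1937, 2214 and 2108 CPM in the WT, 2218, 2467 and 2368 CPM in the Het and 2499, 2807 and 2553 CPM in the KO animals. Myt1l RNA was thus present in KO nuclei, and its level does not report on the protein.

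The 10 genes lie on 5 chromosomes of the GRCm38 build and, with the exception of Cntn2, span long stretches of sequence. Cntn2 covers 33.8 kb (chr1:132509427-132543256, minus strand), and Cntnap2 covers 2245 kb (chr6:45059357-47304213, plus strand). Cntn3, Cntn6 and Cntn4 follow each other on chromosome 6, with 1920 kb between Cntn3 and Cntn6 and 814 kb between Cntn6 and Cntn4. Cntnap5b lies at chr1:99772765-100485942 on the plus strand and Cntnap5a at chr1:115684756-116587323 on the plus strand. No other protein-coding gene of the annotation overlapped any of the 10. Genes of other types overlapped 6 of the 10, among them 28 in Cntnap2, 7 in Cntn5 and 6 in Cntnap5b. Entries that were not whole numbers held 16.5% of the UMIs of Cntn5, 15.9% of Cntnap2 and 7.80% of Cntnap5b. The fractional parts alone made up 1.04, 1.25 and 1.59% of the UMIs of these genes. For Cntnap5a such entries held 11%, with a fractional part of 2.37%, and for Cntn4 9.29%, with 2.91%. The Cntnap5 genes are close relatives, and how reads that match several genes were divided among them was not tested.

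MYT1L family proteins are known to bind the core motif AAGTT. Start-site sequences were read from the RefSeq tables of GRCm38.p6, 250 bases before to 50 after the start. Of the 10 genes 8 had an entry, with 13 promoters, and Cntnap5a and Cntnap5c had none. The motif AAGTT, or AACTT as read on the other strand, occurred in 5 of these 13 promoters, of which the 2 of Cntn4 overlap and share 1 match, and in 39.3% of all 32851 promoters in the table. Shown here are windows of genes that were called in KO neurons in the fits described further on, Cntnap5b (chr1:99772151-99772450, plus strand) as a gene that rose, and Cntn5 (chr9:10904677-10904976, minus strand) and Cntn4 (chr6:106118515-106118814, plus strand) as genes that fell. Capitals mark the motif, which is in the Cntn4 window, 18 bases before the start. The windows of Cntnap5b and Cntn5 do not hold these letters.
Cntnap5b: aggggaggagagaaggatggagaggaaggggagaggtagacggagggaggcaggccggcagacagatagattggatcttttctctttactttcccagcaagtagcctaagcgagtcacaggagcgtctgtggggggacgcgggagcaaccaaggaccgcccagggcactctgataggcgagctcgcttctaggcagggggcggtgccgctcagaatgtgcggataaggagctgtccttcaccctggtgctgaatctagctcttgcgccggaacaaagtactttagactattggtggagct
Cntn5: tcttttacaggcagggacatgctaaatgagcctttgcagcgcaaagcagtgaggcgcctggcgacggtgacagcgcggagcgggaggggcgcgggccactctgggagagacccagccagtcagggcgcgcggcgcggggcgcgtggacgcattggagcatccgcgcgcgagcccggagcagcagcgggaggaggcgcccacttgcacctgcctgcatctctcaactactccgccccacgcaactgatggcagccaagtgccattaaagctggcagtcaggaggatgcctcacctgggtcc
Cntn4: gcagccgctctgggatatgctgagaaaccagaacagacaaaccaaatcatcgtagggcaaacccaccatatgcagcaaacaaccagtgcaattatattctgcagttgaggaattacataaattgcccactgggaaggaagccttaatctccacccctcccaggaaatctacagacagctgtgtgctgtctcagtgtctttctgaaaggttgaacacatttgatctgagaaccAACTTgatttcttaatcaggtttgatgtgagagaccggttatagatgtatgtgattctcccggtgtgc

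The GC content of these windows was 57.7% for Cntnap5b, 66.7% for Cntn5 and 45.0% for Cntn4, beside a median of 52.7% over all promoters. A match describes letters in the sequence and not a bound site. The Cntnap5b window lies before the start of the gene in the annotation used for positions, because the RefSeq start differs from it, and the Cntn4 window lies inside the annotated gene, which starts at position 105677660 of chromosome 6.

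Cntn5, a contactin (NB-2) studied in the auditory pathway and in synapse formation, had the steepest distribution over the neuron subtypes. In direct-pathway striatal neuron-like nuclei its level was 6473, 5933 and 7056 CPM in the WT animals. The next subtype, deep-layer excitatory neuron-like, reached 634 ± 253 CPM (SD, n = 3), and the lowest, upper-layer excitatory neuron-like, 45.0 ± 14.1. Deep-layer and indirect-pathway striatal neuron-like nuclei (570 ± 26.2 CPM) overlapped between animals. The direct-pathway animals stood apart from those of all other subtypes, the highest of which was 921 CPM in deep-layer nuclei of WT 1. Neuronal clusters without a subtype name came closer, with WT means of 2658 CPM in cluster 20 and 2031 CPM in cluster 26, and the Cajal-Retzius-like class held 1170 ± 169. RNA of the lowest cell class, radial glia-like, was 47.1 ± 6.75 CPM, close to the upper-layer level, and both lie below the 118 CPM counted in microglia and macrophage-like nuclei.

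Cntn2 (TAG-1), a contactin of newly growing axons, was laid out differently. It was highest in upper-layer excitatory neuron-like nuclei, at 1193, 1547 and 1334 CPM in the WT animals. Newborn and migrating excitatory neuron-like nuclei followed at 974 ± 80.2 CPM (SD, n = 3), and deep-layer nuclei at 422 ± 80.9. The 3 excitatory subtypes did not overlap, and each lay above the striatal and interneuron subtypes, which ran from 111 CPM in the direct-pathway to 37.5 in the caudal ganglionic eminence interneuron-like group. Radial glia-like nuclei held 28.6 ± 15.2 CPM and excitatory intermediate progenitor-like nuclei 72.6 ± 9.60, against 791 ± 116 in excitatory neuron-like nuclei as a whole.

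Cntn1 (F3) was highest, among the classes in WT animals, in oligodendrocyte progenitor-like nuclei (446 ± 57.6 CPM, n = 3), above inhibitory neuron-like nuclei (271 ± 33.6). These WT values rest on 105, 20 and 41 nuclei. In the same class the level was 196, 186 and 236 CPM in the Het and 168, 119 and 273 CPM in the KO animals, all below the WT animals, with means below those of inhibitory neuron-like nuclei (258 in Het and 242 in KO). Neither difference from WT passed the test (edgeR, adjusted p = 0.704 in Het and 0.728 in KO). Among neuron subtypes it had its highest means in deep-layer excitatory (282 ± 23.5) and direct-pathway striatal neuron-like nuclei (281 ± 38.2), whose animals overlapped. Newborn and migrating excitatory neuron-like nuclei held 12.1 ± 1.59 CPM. These newborn nuclei, second among the subtypes for Cntn2, were thus the lowest for Cntn1.

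Cntn3, Cntn4 and Cntn6 (BIG-1, BIG-2 and NB-3), the contactins that neighbour each other on chromosome 6, were low in most subtypes. Among the subtypes Cntn3 was highest in direct-pathway striatal neuron-like nuclei (131 ± 9.58 CPM, n = 3), and among the classes its highest mean was in Cajal-Retzius-like nuclei (257 ± 10.9), while radial glia-like nuclei held 74.2 ± 3.00. Cntn4 reached 178 ± 38.8 CPM in indirect-pathway striatal neuron-like nuclei, against 12.7 in newborn excitatory neuron-like nuclei and 13.6 in microglia and macrophage-like nuclei. Cntn6 peaked in the same subtype at 49.7 ± 10.5 CPM and lay between 5.17 and 5.75 CPM in the excitatory subtypes, which overlapped. Among the 21 neuronal clusters tested, both had their highest WT mean in a cluster without a class name, led by Pappa2 and Car10, at 1003 CPM for Cntn4 and 315 CPM for Cntn6. For Cntn4 a second cluster, the excitatory neuron-like cluster 31 of 914 nuclei, held 983 CPM (601 to 1510 over the WT animals) and overlapped it. The diencephalic neuron-like nuclei of Het 1 held 1345 CPM of Cntn4 and 359 CPM of Cntn6.

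Cntnap2 (Caspr2), which clusters potassium channels beside the node, was highest, among the classes, in Cajal-Retzius-like nuclei, at 3223 ± 67.0 CPM (SD, n = 3). Inhibitory neuron-like nuclei held 1397 ± 210 CPM and excitatory neuron-like nuclei 264 ± 45.8, and no pair of these 3 classes overlapped. Over the 21 neuronal clusters the peak was 5108 CPM, in the inhibitory neuron-like cluster led by Gbx1 and Lhx8. The same cluster held the highest Cntnap5a (1585 CPM) and Cntn1 (886 CPM) means of these clusters. For Cntn1 it overlapped cluster 29 (819 CPM) between animals.

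The Cntnap5 genes, relatives of Cntnap2 with less known functions, were laid out differently from each other. Among the 7 subtypes Cntnap5b was highest in direct-pathway striatal neuron-like nuclei (740 ± 37.6 CPM, n = 3), above the indirect-pathway group (229 ± 1.03), and was lowest in upper-layer excitatory neuron-like nuclei (29.5 ± 6.69). Cntnap5c was high in medial (1021 ± 137 CPM) and caudal (669 ± 149) ganglionic eminence interneuron-like nuclei, and no other subtype exceeded the 61.0 CPM of the indirect-pathway group. Cntnap5a was highest, among the 7 subtypes, in caudal ganglionic eminence interneuron-like nuclei (92.4 ± 31.7 CPM), where it overlapped the direct-pathway group. As a background for low values, microglia and macrophage-like nuclei, 253 in all, held 28.9 CPM of Cntnap5b and 118 CPM of Cntn5, and the 340 mural and fibroblast-like nuclei held 19.8 CPM of Cntnap5b.

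**Figure D1:**
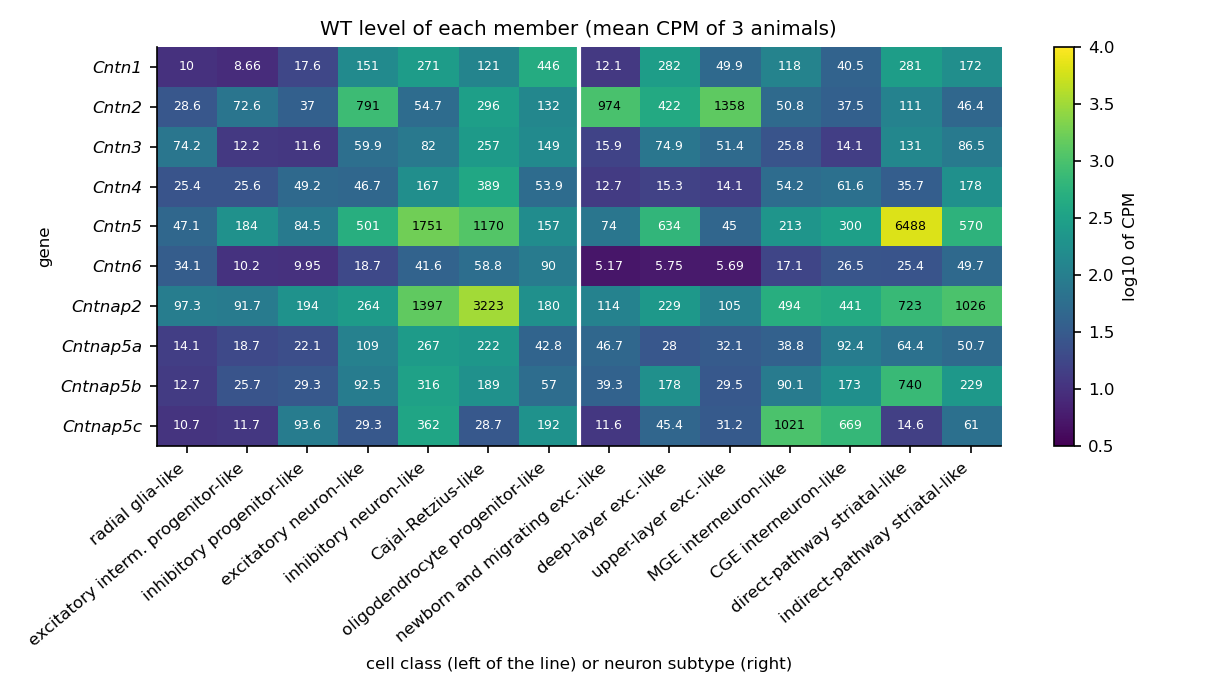
Mean level of each of the 10 genes in the 3 WT animals, in CPM, printed in each cell and coloured by its log10, for 7 cell classes (left of the white line) and 7 neuron subtypes (right). Cntn5 in direct-pathway striatal neuron-like nuclei (6488 CPM) and Cntn2 in upper-layer excitatory neuron-like nuclei (1358 CPM) stand out, while Cntn6 is at 5.17 to 5.75 CPM in the excitatory subtypes.

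Levels of different genes were compared per 100 kb of gene, and whether UMIs scale with gene length here was not tested. On this scale Cntn2, by far the shortest of the 10, ranked first in all 7 classes and in 5 of the 7 subtypes, from 84.6 CPM per 100 kb in radial glia-like to 2340 in excitatory neuron-like nuclei among the classes. In radial glia-like, inhibitory progenitor-like and caudal ganglionic eminence interneuron-like nuclei this rests on 28.6, 37.0 and 37.5 CPM. These lie below the 41.6 CPM of Cntn2 in microglia and macrophage-like nuclei. Of the 14 classes and subtypes, Cntn5 ranked first in 1, the direct-pathway striatal neuron-like group, at 522 CPM per 100 kb against 328 for Cntn2. In medial ganglionic eminence interneuron-like nuclei Cntnap5c (159) and Cntn2 (150) overlapped between animals, as did Cntn2 (111) and Cntnap5c (104) in the caudal group.

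Genes with the most similar profile were ranked by the Pearson correlation of log2(CPM + 1) over 20 WT points, the neuron subtypes and other neuronal clusters, among 7446 genes. The points share libraries and animals, so the correlations are descriptions without a p. Cntn2 was most like Gm37960 (r = 0.949) and Rpap2 (0.948), and Cntnap2 most like Hecw2 (0.930), a ubiquitin ligase. Cntn1 was most like Dock9 (0.920), Cntnap5c most like Npas1 (0.913), an interneuron transcription factor, and Cntn4 most like Ntng1 (0.907), an adhesion molecule of the netrin family. Cntn5 was most like Epn2 (0.883), Cntnap5b like Chchd6 (0.875), Cntn6 like Camk2d (0.866), Cntn3 like Galnt16 (0.805) and Cntnap5a like March1 (0.804). Within the family the closest pairs were Cntn4 with Cntn6 (r = 0.792), Cntn4 with Cntnap2 (0.777) and Cntn5 with Cntnap5b (0.748). Cntn2 ran against every other member, from r = -0.207 with Cntn3 to -0.647 with Cntnap5c and -0.654 with Cntnap5b.

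The next question was which of the 10 genes change when MYT1L is reduced or lost. Tests were edgeR quasi-likelihood fits over the 9 animals in each cell class, neuron subtype or cluster, with Benjamini-Hochberg adjustment over all genes tested. A gene was called at an adjusted p below 0.05 and a log2 fold change beyond 0.2. In KO against WT excitatory neuron-like nuclei, 1 of the 10 genes was called, Cntnap5b, where 1.16% of the 18715 genes tested were called. Its level was 89.2, 87.9 and 100 CPM in the WT, 95.4, 97.8 and 109 CPM in the Het and 166, 167 and 136 CPM in the KO animals. All KO animals lay above all WT and Het animals, with KO 3 the lowest of them. The log2 fold change of KO against WT was 0.78 (SE 0.0939), a 1.71-fold rise (edgeR, adjusted p = 0.00244). In run 1 alone the change was 0.71 with no overlap of WT and KO, and the call was lost (edgeR, adjusted p = 0.136).

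The Cntnap5b rise was larger in deep-layer excitatory neuron-like nuclei. The levels there were 162, 174 and 198 CPM in the WT, 181, 212 and 219 CPM in the Het and 388, 401 and 284 CPM in the KO animals. No KO animal overlapped WT or Het. The log2 fold change was 1.02 (SE 0.129), a 2.03-fold rise (edgeR, adjusted p = 0.000875, with 2.13% of genes called in this subtype). Run by run the groups also stayed apart, with 137 to 176 CPM in WT and 217 to 349 in KO in run 1, and 171 to 201 against 298 to 415 in run 2.

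In upper-layer excitatory neuron-like nuclei Cntnap5b was low, at 36.5, 23.2 and 28.8 CPM in the WT, 30, 33.9 and 37.6 in the Het and 43.7, 45.5 and 49.1 in the KO animals. The KO animals lay above the WT animals, at a level not far from the 28.9 CPM of the microglia and macrophage-like nuclei. The log2 fold change was 0.71 (SE 0.133, edgeR, adjusted p = 0.0132), with 0.997% of genes called. This call was lost without WT 2, without WT 3, without KO 2 and in run 1 alone, where the genotypes overlapped. In newborn and migrating excitatory neuron-like nuclei the level was 40.0, 35.4 and 42.5 CPM in WT and 40.1, 38.1 and 39.4 CPM in KO animals, which overlapped (log2 fold change 0.03, SE 0.109).

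In inhibitory neuron-like nuclei Cntnap5b was 323, 315 and 310 CPM in the WT, 324, 352 and 352 in the Het and 357, 383 and 344 in the KO animals. The KO animals lay above the WT animals here too, but the change was 0.23 on the log2 scale (SE 0.0740, edgeR, adjusted p = 0.690). None of the 10 genes was called there by this edgeR fit, where 0.0265% of all genes were. Of the 10, 1 had an unadjusted p below 0.05, as 5.80% of all genes had. DESeq2 called none of the 10, with 0.0767% of all genes called. A fit with the replicate number as a block, described further on, called Cntn4, with 1.04% of all genes called. The difference between the excitatory and the inhibitory change, fitted as an interaction, was 0.56 (SE 0.0748, edgeR, adjusted p = 0.0207). It was the single call among the 10 genes, with 0.0801% of all genes called. That call was lost without WT 1, without WT 2, in run 1 alone and with the 10 genes among those used for clustering. Without KO 2, Cntnap5a was called in place of Cntnap5b.

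**Figure D2:**
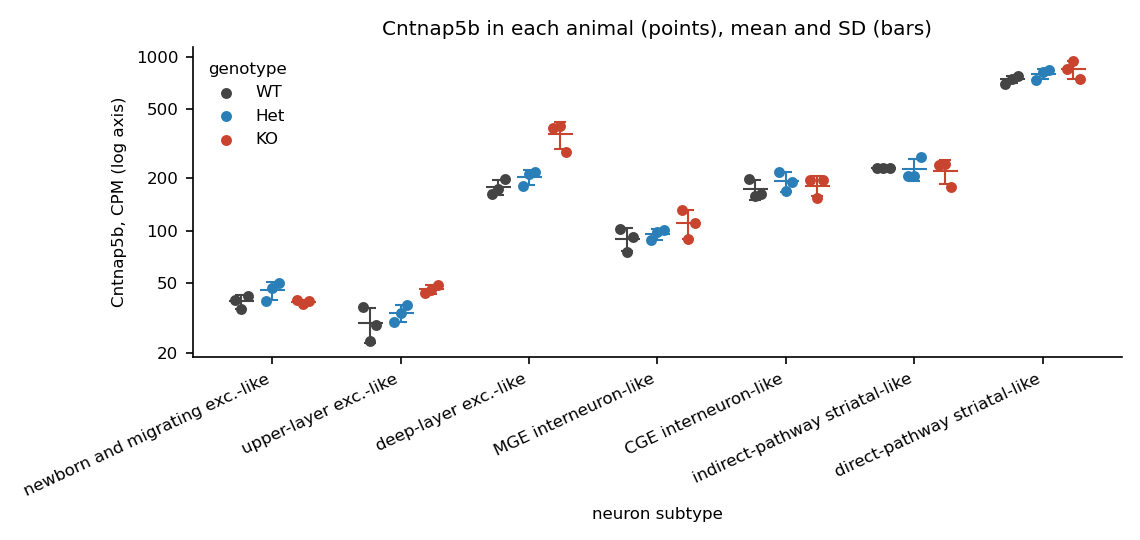
Cntnap5b level in each animal (points), with the mean and SD (bars), in 7 neuron subtypes and 3 genotypes, in CPM on a log axis. The KO animals sit above the WT and Het animals in deep-layer (284 to 401 CPM) and upper-layer (43.7 to 49.1 CPM) excitatory neuron-like nuclei.

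The remaining 9 genes were not called in excitatory neuron-like nuclei by this fit, though 6 of the 10 had an unadjusted p below 0.05, as 13.0% of all genes had, and 8 of the 10 fold changes lay below 0. The median change of the 10 was -0.28 on the log2 scale, beside -0.01 over all genes tested. Cntn5 was 672, 372 and 458 CPM in the WT, 508, 347 and 432 in the Het and 376, 265 and 348 CPM in the KO animals (log2 fold change -0.58, SE 0.176). Cntn4 was 48.5, 33.1 and 58.5 CPM in the WT, 29.7, 31.3 and 51.7 in the Het and 34.2, 15.7 and 29.8 CPM in the KO animals (-0.79, SE 0.261). Cntn6 was 24.0, 15.3 and 16.8 CPM in the WT, 17.3, 13.7 and 23.0 in the Het and 12.3, 8.80 and 11.5 CPM in the KO animals (-0.75, SE 0.188). For Cntn6 the WT and KO animals did not overlap, while for Cntn5 and Cntn4 1 KO animal lay within the WT range, and the Het animals overlapped WT for all 3 genes. DESeq2 called Cntn6 beside Cntnap5b in this class (-0.75, adjusted p = 0.00469), with 350 of 41579 genes called (0.842%). DESeq2 was run without the filter on low counts, and the edgeR share here was 217 of 18715 genes, so the 2 shares have unlike bases. Cntn6 in microglia and macrophage-like nuclei was 13.6 CPM, from 8.17 UMIs, above all 3 KO values and not far below the lowest WT and Het values. In mural and fibroblast-like nuclei it was 6.85 CPM, below all 3 KO values.

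The fold changes of the other 6 genes in excitatory neuron-like nuclei were closer to 0. Cntn2 was 670, 901 and 803 CPM in the WT, 749, 930 and 859 in the Het and 755, 1014 and 1025 in the KO animals (log2 fold change 0.25, SE 0.133). Cntnap2 was 315, 225 and 254 CPM in the WT, 304, 250 and 296 in the Het and 295, 238 and 228 in the KO animals (-0.03, SE 0.115). The genotypes overlapped for both genes. Cntnap5a was 124, 91.4 and 111 CPM in the WT and 87.0, 76.0 and 94.0 in the KO animals (-0.32, SE 0.1), and Cntn1 was 172, 142 and 140 against 143, 112 and 114 CPM (-0.28, SE 0.0978). For both genes the KO animals lay below the same-numbered WT animals. Cntn3 (-0.21, SE 0.137) and Cntnap5c (-0.29, SE 0.143) also lay lower in KO than in WT animals of the same number.

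Same-numbered WT and KO animals deviated together in this class, with a lowest correlation of 0.125. For WT and Het animals, which the block also covers, the lowest was 0.0975, under the 0.1 required. With the replicate number as a block, 9 of the 10 genes were called in excitatory neuron-like nuclei, all but Cntnap2, where 6.31% of all genes were called. The 7 that fell were Cntn1, Cntn3, Cntn4, Cntn5, Cntn6, Cntnap5a and Cntnap5c, and the 2 that rose were Cntn2 and Cntnap5b. Cntn5 changed by -0.56 (edgeR with block, adjusted p = 1.18e-05), Cntn4 by -0.81 (adjusted p = 0.000537) and Cntn6 by -0.76 (adjusted p = 0.000579). Cntn1 changed by -0.28 (adjusted p = 0.00353), Cntn3 by -0.21 (adjusted p = 0.0376), Cntnap5a by -0.32 (adjusted p = 0.00121) and Cntnap5c by -0.31 (adjusted p = 0.0235). Cntn2 rose by 0.25 (adjusted p = 0.00285). Leaving out single animals, which was done without the block, moved the change of Cntn5 to between -0.74 and -0.32 (the latter without WT 1), that of Cntn4 to between -1.01 (without KO 1) and -0.54, and that of Cntn2 to between 0.14 (without WT 1) and 0.38. Without KO 2 the changes of Cntn3 and Cntnap5c were -0.07 and -0.12. In the 3 named excitatory subtypes, Cntn4 and Cntn6 were near the level in microglia and macrophage-like nuclei or below it and were not called. Cntn4 means there were 15.3, 14.1 and 12.7 CPM in WT and 14.3, 12 and 15.1 CPM in KO animals in the deep-layer, upper-layer and newborn groups.

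In deep-layer nuclei the blocked fit called Cntn2 (0.31), Cntn5 (-0.30) and Cntnap5c (-0.38) beside Cntnap5b, with 6.65% of genes called. Without WT 1 and without the block, the deep-layer change of Cntn5 was 0.00 and that of Cntn2 0.16, and without KO 2 that of Cntnap5c was -0.23. In upper-layer nuclei it called Cntn2 (0.24) and Cntnap5c (-0.56) beside Cntnap5b, with 4.48% called, and in inhibitory neuron-like nuclei Cntn4 (-0.36), with 1.04% called. Leaving out single animals, again without the block, put the upper-layer change of Cntn2 between 0.15 (without WT 1) and 0.39 (without KO 1) and that of Cntnap5c between -0.75 and -0.32 (without KO 2), and the inhibitory change of Cntn4 between -0.57 (without KO 1) and -0.12 (without KO 2).

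**Figure D3:**
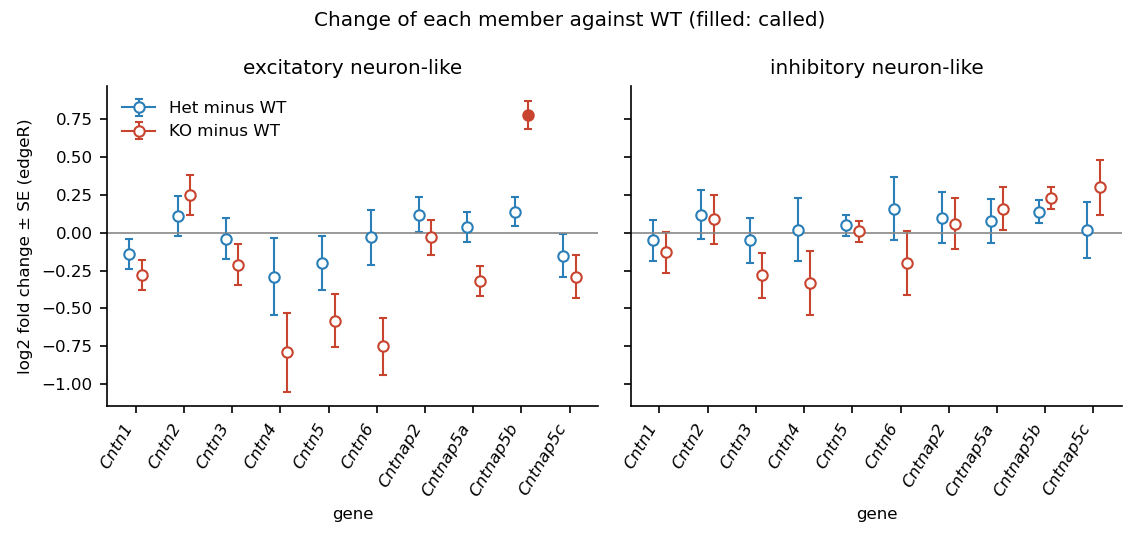
Log2 fold change against WT with its SE (edgeR, without the replicate block) for each of the 10 genes in excitatory and inhibitory neuron-like nuclei, Het in blue and KO in red, filled where called. Cntnap5b in KO excitatory neuron-like nuclei (0.78) is the filled point, and 8 of the 10 KO changes in that class lie below 0.

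The neuronal clusters, each fitted on its own in an analysis added after the class results were seen, gave 8 calls among 208 tests of the 10 genes in KO against WT, with 0.434% of tests over all genes called. Cntnap5b was called in 3 clusters, of which clusters 1 and 2 are the deep-layer and upper-layer groups given above, with the same nuclei, and the other 5 calls were all in cluster 11. This excitatory neuron-like cluster held 6766 nuclei, was led by Tafa1 and took no subtype name. Of all 12007 genes tested in it, 1.74% were called. Cntn5 was 1376, 1197 and 1255 CPM in the WT, 1071, 885 and 1058 in the Het and 677, 713 and 779 in the KO animals. The 3 genotypes did not overlap. Cntn5 changed by -0.79 on the log2 scale in KO (SE 0.0817, edgeR, adjusted p = 3.10e-05), a 1.73-fold lower level. Its promoter window, with no AAGTT, is shown above beside that of Cntn4.

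Cntn4 and Cntn6 fell in the same cluster. Cntn4 was 130, 102 and 86.5 CPM in the WT, 74.1, 75.9 and 95.2 in the Het and 64.0, 45.0 and 59.5 in the KO animals (-0.89, SE 0.149, edgeR, adjusted p = 0.0025). Cntn6 was 108, 88.9 and 81.2 CPM in the WT, 81.4, 65.2 and 92.7 in the Het and 53.2, 48.7 and 57.2 in the KO animals (-0.77, SE 0.133, edgeR, adjusted p = 0.00293). For both genes the KO animals lay below all WT and Het animals. The calls for Cntn4, Cntn5 and Cntn6 held under all 11 alternatives run for this cluster. These were DESeq2, the replicate block and each animal left out. Each run alone and the other alternatives were not run for single clusters.

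Cntn2 rose in cluster 11, from 379, 512 and 485 CPM in the WT, with 453, 551 and 476 in the Het, to 553, 719 and 724 in the KO animals (0.56, SE 0.118, edgeR, adjusted p = 0.0138). The call was lost without WT 1 and without KO 2. Cntnap5a fell from 542, 456 and 524 CPM in the WT, with 552, 453 and 487 in the Het, to 338, 416 and 406 in the KO animals (-0.36, SE 0.0916, edgeR, adjusted p = 0.0466), with no overlap between WT and KO, and its call was lost without WT 1, WT 3, Het 3, KO 1 or KO 3. No KO animal overlapped WT for Cntn2. Cntnap5b there was 30.2, 35.8 and 32.5 CPM in WT and 39.6, 42.4 and 53.4 CPM in KO animals and was not called (0.50, SE 0.155, edgeR, adjusted p = 0.122). The share of excitatory neuron-like nuclei that cluster 11 held was 15.3, 12.1 and 13.2% in the WT and 12, 8.97 and 12.3% in the KO animals. Its part in the class-level changes was not tested.

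**Figure D4:**
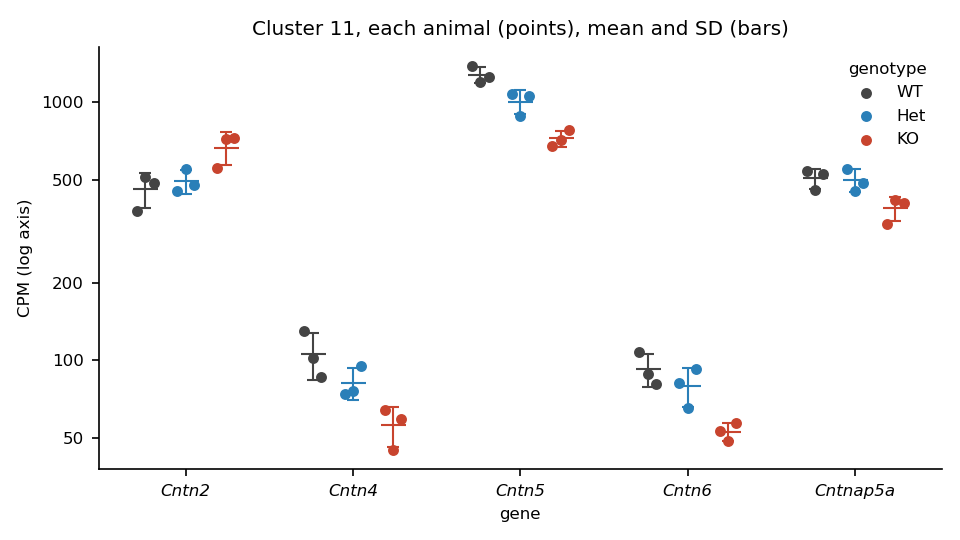
Level of the 5 genes called in cluster 11, an excitatory neuron-like cluster, in each animal (points) with mean and SD (bars), in CPM on a log axis. Cntn4, Cntn5, Cntn6 and Cntnap5a are lower and Cntn2 higher in the KO animals, with the Het animals of Cntn5 in between.

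Of the 21 neuronal clusters, the largest Cntnap5b change was in cluster 29, a cluster of 1057 nuclei without a class name, led by Il1rapl2, Unc13c and Nr4a2. Its level was 99.3, 49.2 and 65.8 CPM in the WT, 116, 53.9 and 78.1 in the Het and 249, 205 and 237 in the KO animals. The KO animals lay above all others. The log2 fold change was 1.71 (SE 0.225), a 3.28-fold rise (edgeR, adjusted p = 0.000143, with 2.10% of genes called). The cluster held 0.816, 0.524 and 0.677% of all nuclei in the WT and 0.567, 0.279 and 0.488% in the KO animals.

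**Figure D5:**
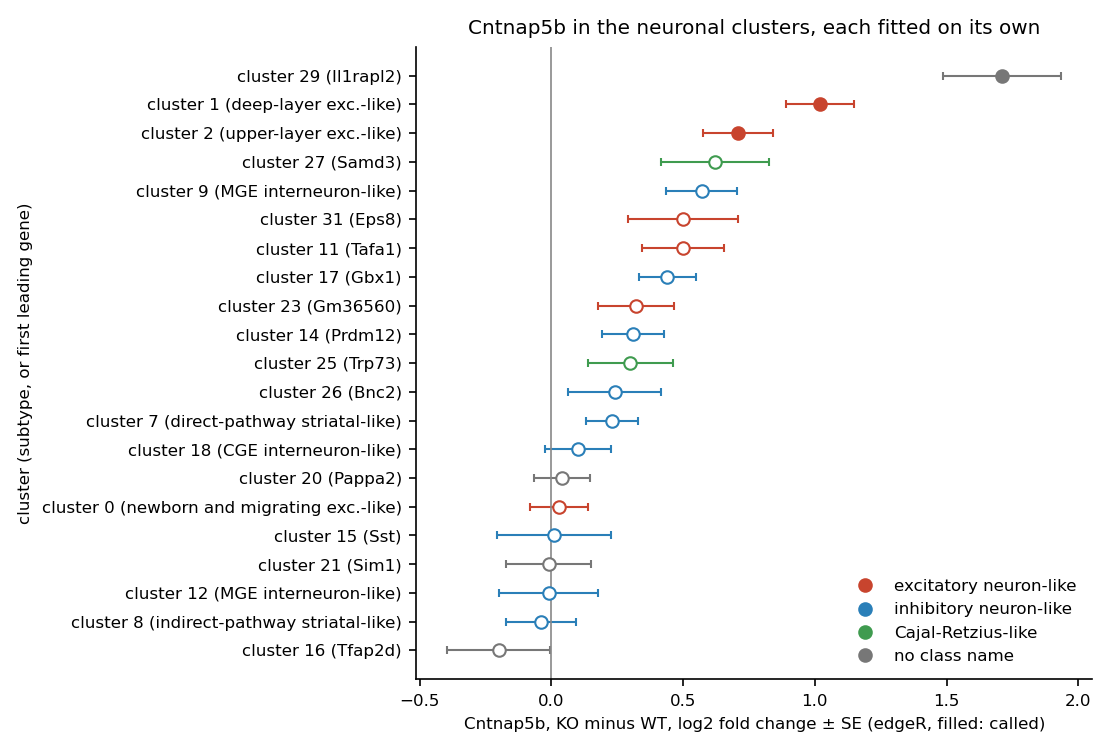
Log2 fold change of Cntnap5b in KO against WT with its SE (edgeR) in each of the 21 neuronal clusters, coloured by class and filled where called. Clusters 29 (1.71), 1 (1.02) and 2 (0.71) are called, and the remaining clusters run from -0.20 to 0.62.

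In inhibitory neuron-like cluster 17, led by Gbx1 and Lhx8, Cntnap5b was 210, 194 and 156 CPM in the WT, 231, 260 and 254 in the Het and 259, 246 and 236 in the KO animals. The KO animals lay above the WT animals, and the change of 0.44 had an adjusted p of 0.134 by edgeR, with 0.178% of genes called, and of 0.0485 by DESeq2, with 0.0982% called. Cluster 9 was a medial ganglionic eminence interneuron-like cluster in which the replicate numbers paired the WT and KO animals, though not all WT and Het animals. The blocked edgeR fit there called Cntnap5b (0.58, adjusted p = 0.00682), Cntnap5c (0.42), Cntn1 (-0.56) and Cntnap2 (-0.35), with 1.73% of genes called. Without the block and KO 2 the changes of Cntnap5c, Cntn1 and Cntnap2 there were 0.25, -0.32 and -0.16. Cntnap5c there was 974, 1293 and 1150 CPM in the WT and 1406, 1831 and 1246 CPM in the KO animals, which overlapped by 1 animal. In cluster 12, the other cluster of this subtype, the blocked fit called none of the 10 genes, with 0.00986% of genes called. In the subtype as a whole it also called none of the 10, with 0.256% of genes called. Cntn3 in indirect-pathway striatal neuron-like nuclei was 91.7, 67.5 and 100 CPM in the WT, 75.7, 58.3 and 82.3 in the Het and 39.4, 46.1 and 34.0 in the KO animals. The KO animals lay below the others, and the change was -1.07 (SE 0.175), with an adjusted p of 0.131 by edgeR, which called 0% of genes there, and 0.0105 by DESeq2, which called 0.00918%. Cntnap5a in direct-pathway nuclei was 74.5, 59.4 and 59.4 CPM in the WT, 60.5, 104 and 102 in the Het and 121, 95.9 and 103 in the KO animals. The KO animals did not overlap WT, while the Het animals overlapped both. Cntnap5a was not called in KO there (0.75, SE 0.168, edgeR, adjusted p = 0.335).

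In Het against WT none of the 10 genes was called in any class or subtype by edgeR, where 0% of all genes were called in each. DESeq2 called none of the 10 either, and of all genes 0% in each group but the upper-layer one, with 0.00286%. Of 65 tests by class, 2 had an unadjusted p below 0.05, as 2.62% of the tests of all genes had, and of 70 tests by subtype, 6 had, beside 3.28%. Cntnap5b in Het changed by 0.14 in excitatory neuron-like and by 0.21 in deep-layer nuclei. The ranges overlapped, and each Het animal lay above the WT animal of the same number in both groups. In deep-layer nuclei, where the numbers paired WT and Het animals, it was not called with the block either (0.21, edgeR, adjusted p = 0.741). In the 21 neuronal clusters none of 208 Het tests was called by edgeR (0.000458% over all genes), with 18 at an unadjusted p below 0.05, beside 3.50% of the tests of all genes. Cntn5 in cluster 11 was 1 of these, with a change of -0.33 (edgeR, unadjusted p = 0.000662, adjusted p = 0.825) and all Het animals below all WT animals.

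Partners of the contactins were 22 genes for L1-type adhesion molecules, phosphatase receptors, amyloid precursor proteins, matrix proteins, Notch1, axonal channels and scaffolds, and the other contactin-associated proteins. In KO excitatory neuron-like nuclei all 22 were tested and none was called by edgeR, with 4 at an unadjusted p below 0.05, beside 13.0% of all genes, and a median change of 0.01. DESeq2 called 1, Nrcam (adjusted p = 0.0107), with 0.842% of all genes called. With the replicate block, Nrcam (-0.29), an L1-type molecule, and Aplp1 (-0.31), an amyloid precursor-like protein, fell and Kcna1 (0.26), an axonal potassium channel, rose, with 6.31% of all genes called. Without the block and KO 1 the change of Aplp1 was -0.09, and without the block and WT 1 that of Kcna1 was 0.15. The blocked fit also called Nrcam and Aplp1, both lower, in deep-layer and upper-layer nuclei, and Kcna1 in deep-layer and Tnr in upper-layer nuclei, both higher. Of all genes it called 6.65% in deep-layer and 4.48% in upper-layer nuclei. Without the block edgeR called none of the partners in either subtype. In cluster 11 the edgeR fit without a block called Nfasc (0.38, adjusted p = 0.00926), an L1-type molecule of the node, and Tnr (0.57, adjusted p = 0.00729), a matrix ligand of contactins, with 1.74% of all genes called there. The Nfasc call was lost without WT 1 and without KO 1, and that of Tnr held under all 11 alternatives.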

How the data were processed

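The 18 libraries were 2 runs of 9 animals, as the titles name them. The values are estimated counts, UMIs by gene and nucleus, which the authors made with the ScaleRna pipeline on mm10, and 6.70 to 8.71% of the entries are not whole. The submitters' processing notes name Seurat 4.3.0, Scanpy 1.12.0 and DESeq2 1.38.3. No columns of other samples were used.

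From these, the limits on nuclei were 800 to 6000 UMIs, 300 to 3000 detected genes, no more than 1% of UMIs from mitochondria and a complexity (logarithm of genes divided by that of UMIs) from 0.9 upwards, which 200916 of 261143 barcodes passed. The 5% of all barcodes of each library with the highest score against simulated doublets were also removed, many of which had failed these limits already, which left 196231. Clustering used 3000 variable genes without the 10 family genes and Myt1l, 50 principal components, 20 neighbours and Leiden resolution 1, and gave 35 clusters. Classes and subtypes were named from marker lists. A subtype name also needed at least 1 of its markers among the 10 leading genes, a rule set after the data were seen. Counts were summed per animal over both runs and rounded to whole numbers. Groups in which each animal had 20 nuclei or more were tested with edgeR 4.0.16 (TMM, filter on low counts, quasi-likelihood) on genotype, all 9 animals in each fit, in R 4.3.3. The difference between classes was fitted with animal, class and class by genotype. DESeq2 1.42.0 was the other tool and was run without the filter on low counts, so its shares of all genes are over more genes. The edgeR fit without a block was tested on simulated data, for KO against WT in excitatory and inhibitory neuron-like nuclei. The other fits were not tested in this way.

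Same-numbered WT and KO animals deviated together, every pair with a correlation over 0.1, in 10 of 14 groups, and in 6 of 21 neuronal clusters. For WT and Het this held in 4 of 14 groups. The pairing comes from the replicate numbers in the labels, which are not stated to mark a litter. It was judged on the same counts that were then tested. In the groups where it held, the blocked fit is given where it changed a call.

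Alternatives were DESeq2, another size factor, no filter, the replicate block, each animal left out, each run alone, only the 6 animals compared, no upper limits on nuclei, no doublet removal, and the 10 genes among those used for clustering. For single clusters only DESeq2, the replicate block and each animal left out were run. The 10 genes were always named. Partner genes were named where called, and for each of the 10 the 2 genes with the most similar profile were found. The 10 genes and the lists were chosen with earlier results of these data known. Gene positions come from GENCODE vM21, which held 55154 of the 55335 gene identifiers when versions were ignored. Depth limits the precision: the 9 sums together held 156753639 UMIs in excitatory neuron-like and 2368185 in oligodendrocyte progenitor-like nuclei.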

Additional observations from a re-analysis of the deposited data

Results flagged for a closer look

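The KO against WT change of Cntnap5b differed between 2 cell classes. It was 0.78 on the log2 scale in excitatory neuron-like and 0.23 in inhibitory neuron-like nuclei, and the interaction term was 0.56 (SE 0.0748, edgeR, adjusted p = 0.0207). The KO mean lay above the WT mean in both classes, but the inhibitory change was not called. The interaction call was lost in 5 of 17 alternatives, among them run 1 alone. Within the excitatory class the change was 1.02 in deep-layer and 0.03 in newborn and migrating excitatory neuron-like nuclei.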

How the results depend on the processing

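By cell class, 1 of 65 tests of the 10 genes was called in KO against WT, with 226 calls over all genes (0.243% of tests). Brackets below hold the calls over all genes and their share of tests, whose number differs between settings. The count was 2 of 70 (387, 0.160%) by DESeq2, 11 of 70 (944, 0.389%) with no filter on low counts and 10 of 65 (1388, 1.49%) with the replicate block. It was 0 of 58 (1, 0.00159%) in run 1 alone, 2 of 60 (179, 0.214%) in run 2 alone and 2 of 69 (274, 0.275%) with no upper limits on nuclei. The fits that left out an animal gave 1 to 1, with shares of 0.0631 to 0.378%. By neuron subtype the count was 2 of 70 (437, 0.498%). It became 3 of 70 (393, 0.166%) by DESeq2, 12 of 70 (1065, 0.451%) with no filter and 7 of 70 (1597, 1.82%) with the block. It was 1 of 68 (54, 0.0958%) in run 1 alone and 1 of 59 (182, 0.242%) with the 10 genes among those used for clustering. Without an animal it was 1 to 2, with shares of 0.176 to 0.614%. In Het against WT the counts by class and subtype were 0 and 0, beside 0% of all genes in each. With no filter the count by class was 1 (Cntn3 in oligodendrocyte progenitor-like nuclei), beside 0.0775% of the tests of all genes. The single difference between excitatory and inhibitory neuron-like nuclei (16, 0.0801%) became 6 (235, 0.530%) with no filter and 0 (0, 0%) in run 1 alone. It became 0 (5, 0.0242%) with the 10 genes among those used for clustering. Without an animal it was 0 to 1, with shares of 0.00977 to 0.107%. The cause of these shifts was not tested. Run 1 alone, run 2 alone and the clustering with the 10 genes each had 6 classes tested in place of 7, and no upper-layer group formed when the 10 genes were used for clustering.

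Cntnap5b in deep-layer nuclei was called under all 19 alternatives, with 0.91 to 1.18 when an animal was left out. Its excitatory call was lost in run 1 alone. The subtype with the highest level stayed the same for 8 of the 10 genes in run 1 alone (not Cntn1 and Cntn3), for 9 in run 2 alone and 9 with no upper limits (not Cntn1), for 10 with no doublet removal and for 7 with the 10 genes among those used for clustering (not Cntn2, Cntnap2 and Cntnap5a). Cntn5 in deep-layer nuclei, called with the block, went from -0.55 to 0.00 when an animal was left out, the latter without WT 1. Values near 0 that changed sign and were not called were those of Cntnap2 in excitatory neuron-like nuclei (from -0.16 to 0.10 when an animal was left out, above 0 without WT 1 and without KO 3, 0.02 in run 2 alone and 0.00 with no upper limits) and Cntnap5b in newborn nuclei (-0.02 to 0.10, the former without WT 2, -0.08 in run 1 alone and -0.02 with no doublet removal). In the 21 neuronal clusters the 10 genes were called in 8 of 208 tests, with 947 calls over all genes (0.434% of tests). DESeq2 called 10 of 210 (all genes 805, 0.127%) and the blocked fit 24 of 208 (all genes 3001, 1.37%). In 15 of these clusters same-numbered WT and KO animals were not shown to pair. Beyond the calls given with the results, the block changed no other call of the 10 genes in the classes and subtypes where the numbers paired the animals.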
